A study of Mus musculus with 48 samples.

Results

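The genes examined encode subunits of the receptors for glutamate and GABA, the main excitatory and inhibitory transmitters of the brain. They were chosen as a list of gene symbols, matched through their Ensembl identifiers to the table of counts, and 38 of its 48440 genes are members. The list holds 4 AMPA receptor, 7 NMDA receptor, 5 kainate receptor, 1 delta receptor, 7 metabotropic glutamate receptor, 12 GABA-A receptor and 2 GABA-B receptor genes. Not every known subunit gene is among them.

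Total RNA from the amygdala of both hemispheres was sequenced in 48 male mice labelled C57BL/6 and aged 4 months, 1 library per mouse. The mice came from Tph2+/- parents backcrossed to C57BL/6N and carried 2, 1 or no intact copies of Tph2 (Tph2+/+, Tph2+/- and Tph2-/-), the gene for the enzyme that makes serotonin in neurons. The inactive allele is present in all cells. Whole litters were assigned either to a treatment in which pups were taken from the dam for 3 h a day from postnatal day 2 to 15 (maternal separation, MS) or to normal rearing in the animal facility (control, C). Each of the 6 groups of genotype and treatment held 8 mice, and their litters are not known from the labels. All mice had been through behavioural tests as adults before the tissue was taken.

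AMPA, NMDA and kainate receptors are cation channels that open when glutamate binds, and NMDA receptors need a GluN1 subunit, encoded by Grin1, together with GluN2 or GluN3 subunits. Metabotropic glutamate receptors and GABA-B receptors act through G proteins, while GABA-A receptors are chloride channels assembled from alpha, beta and other subunits. In the amygdala the channels carry fast excitation and inhibition, the G protein-coupled receptors modulate both more slowly, and fear learning depends on them.

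Counts on genes ranged from 609489 to 6296568 per library, with a median of 738490. In 4 libraries (Tph2+/+ C replicate 1, Tph2+/+ MS replicate 2, Tph2+/- C replicate 2 and Tph2-/- C replicate 1) the non-coding RNA Gm42418 alone had over 500000 counts. Library sizes after trimmed mean (TMM) scaling, to which the scaled counts (CPM) below refer, ran from 405585 to 999935. At these sizes 3 counts, the limit that a count of 0 allows, make 3.00 to 7.40 CPM, which covers counting error only. Tph2 itself had 2 counts over all 48 libraries, so the genotype could not be checked from it. All 5 neuronal markers examined were detected, with mean counts from 1.96 (Stmn2) to 14.9 (Syt1) per library. The means of 5 microglial markers ran from 0.0417 (C1qa and Tmem119) to 135 (Csf1r), and those of 5 markers of striatum and central amygdala from 0.0417 (Drd2) to 4.33 (Penk). The setting for strand in the counting is not given in the sources used here. Of 4 genes that are abundant in every cell, Gapdh averaged 58.5 and Tuba1a 40.4 counts per library, whereas Actb averaged 7.10 and Eef1a1 7.29, each with 0 in some libraries. At the median library, 97.5% of the read pairs on a gene, on no gene or ambiguous fell on no gene. The counts of all 38 members therefore cannot be read as the amount of their own RNA, whether or not another gene lies opposite to them, and levels and differences below are those of the deposited counts. In bulk tissue, fewer cells of a type and less RNA per cell cannot be told apart.

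The genes opposite to the members were examined first. In the GENCODE annotation, 11 of the 38 members share exonic bases with a gene on the other strand, in 13 pairs. Of the 11 opposite genes that are not members themselves, 8 had more counts in total than the member. Grin1os, an antisense RNA, had 71304 counts over the 48 libraries, from 888 to 2383 per library, while Grin1 had 111. Their exons share 1307 bases, 1184 of them coding bases of Grin1. Grin2b, with 975 counts, lies opposite to Gm14329 with 13272, Gm22892 with 12663 and Gm26653 with 3906 counts. Gabra5 had 501 counts against 8707 of Gm9962, and Grm7 had 477 against 5792 of Gm20387. The reverse held for Grin2d, with 4489 counts against 566 of Gm45441, and for Grin3b, with 1318 against 29 of Tmem259. Grm6 had 7 counts and Gm12660, opposite to it, had 0. The median of the mean counts was 10.4 over the 11 members with an opposite exonic gene and 3.23 over the 27 without. A further 6 members (Gria2, Gria3, Gria4, Grik4, Grid1 and Grm8) share exonic bases with a small RNA gene on their own strand, so that their reads could have been split between features.

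**Figure D1:**
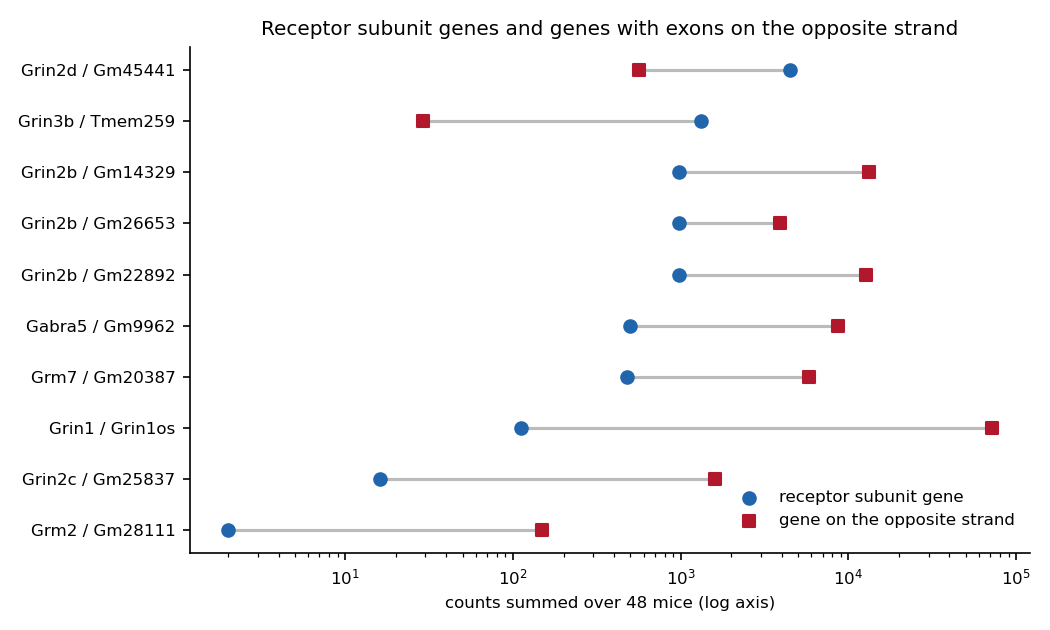
Total counts over the 48 libraries (log axis) of members and of the genes that share exonic bases with them on the other strand, for 10 pairs. Grin1os stands at 71304 counts against 111 of Grin1, whereas Grin2d and Grin3b lie above their opposite genes. A pair with 0 counts on Gm12660 and the pair of Gabra4 and Gabrb1 are not drawn.

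Coding exons that lie opposite to more abundant genes are shown for Grin2c and Gabra5, because a part of the receptor gene's exons and the opposite gene share positions there. Most exonic bases of both receptor genes lie outside the shared stretches. They are taken from the GENCODE M21 transcripts on GRCm38, written 5′ to 3′ on the strand of the receptor gene, with the bases inside an exon of the opposite gene in capitals. The exon 10 of Grin2c at chr11:115253208-115253368, minus strand, has 91 of 161 bases in an exon of Gm25837, which had 1591 counts against 16 of Grin2c. The stretch of Gabra5 is in its exon 10 at chr7:57408610-57408909, minus strand, where the first part of the 300 bases shown lies in an exon of Gm9962.
Grin2c: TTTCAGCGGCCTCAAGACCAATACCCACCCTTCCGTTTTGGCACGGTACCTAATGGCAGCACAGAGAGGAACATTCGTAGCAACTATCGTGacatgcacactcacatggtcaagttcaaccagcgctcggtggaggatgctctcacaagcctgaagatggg
Gabra5: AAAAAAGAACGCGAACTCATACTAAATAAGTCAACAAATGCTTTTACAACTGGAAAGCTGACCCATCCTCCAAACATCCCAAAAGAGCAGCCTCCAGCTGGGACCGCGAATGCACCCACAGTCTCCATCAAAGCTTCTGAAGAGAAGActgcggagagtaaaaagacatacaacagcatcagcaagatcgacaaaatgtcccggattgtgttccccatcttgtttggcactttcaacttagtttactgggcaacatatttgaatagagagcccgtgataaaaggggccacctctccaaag

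Gm25837 is annotated as a miRNA gene of 108 bases at chr11:115253278-115253385 on the plus strand. In its sequence the capitals mark the 91 bases opposite to the coding exon of Grin2c.
Gm25837: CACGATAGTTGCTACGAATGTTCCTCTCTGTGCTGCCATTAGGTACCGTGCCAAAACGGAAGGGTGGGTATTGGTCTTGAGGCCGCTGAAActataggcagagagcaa
Per library, Gm25837 had 14 to 60 counts. Gm22892, opposite to Grin2b, is also annotated as a miRNA gene and had 121 to 458. Levels per kilobase are not compared for these genes, which are shorter than a 125-base read.

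The 38 members had 18905 counts in all. The median of their mean counts was 4.01 per library, against 0.792 over all 32235 genes with a count, and 12 members reached a mean of 10. The NMDA receptor genes took 54.1% of the counts, followed by the GABA-A receptor genes with 17.3%, the metabotropic glutamate receptor genes with 9.85% and the AMPA receptor genes with 9.81%. GABA-B receptor genes held 4.76%, kainate receptor genes 3.91% and the delta receptor gene Grid1 0.280%. Grin2d, Grin3a and Grin3b alone made up 45.7% of all member counts. Per kilobase of exon, the order of the deposited counts, which is not shown to be that of the members' RNA, was Grin2d (17.7 CPM per kb), Grin3b (10.4), Grm3 (8.17), Grin3a (6.07), Gabra5 (4.46) and Gabbr1 (2.82). Grin1, whose product is part of every NMDA receptor, stood at 0.295 CPM per kb.

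For each comparison, a gene was called where edgeR's quasi-likelihood test gave an unadjusted p under 0.01 and the log2 fold change (lg2FC) exceeded 0.2 in either direction. Of the 38 members, 27 averaged 1 count or more per library and were tested, among 15104 genes in all. The 11 others were Gabre with 0 counts over the 48 libraries, which allows up to 3, Grm4 with 1, Grm2 with 2, Gabra6 with 5, Grm6 with 7, Gabrd with 15, Grin2c with 16, Grik4 with 20, Grik3 with 41, Gabrg1 with 43 and Grm8 with 44. Those with a count entered only the alternative fit of every gene with a count, where Grik4 was called in GE1 and in Tph2+/- against Tph2+/+ C. In that fit 1.63% and 1.28% of all genes were called. Grik4 had 0 counts in all 8 Tph2+/+ C libraries and 0 to 3 per library elsewhere.

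The study asked whether the effect of MS depends on the Tph2 genotype. This was expressed as the interaction GE1, the lg2FC of MS in Tph2+/- mice minus that in Tph2+/+ mice, and GE2, the same difference for Tph2-/- mice. In GE1, 1 of 27 members was called, Grin3b, which was lower, beside 1.92% of all genes tested (290 of 15104). Of all genes, 1.61% were called lower in GE1 and 0.311% higher. In GE2 none of the 27 members was called by edgeR, beside 0.629% of all genes (95 of 15104), while 2 members (Gria1 and Gabrg3) had an unadjusted p under 0.05, beside 4.02% of all genes. No adjusted p passed 0.05 among members or other genes in either interaction, and the smallest among members was 0.310 for GE1 and 0.998 for GE2. The lg2FC was negative for 17 of 27 members in GE1 and for 19 in GE2. Their median was -0.23 in GE1 and -0.24 in GE2, against -0.03 and -0.01 over all genes. GE1 and GE2 share the 16 Tph2+/+ mice. The standard error of the lg2FC of a member in GE1 ran from 0.17 to 1.06, so that only large differences could be called for most of them.

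**Figure D2:**
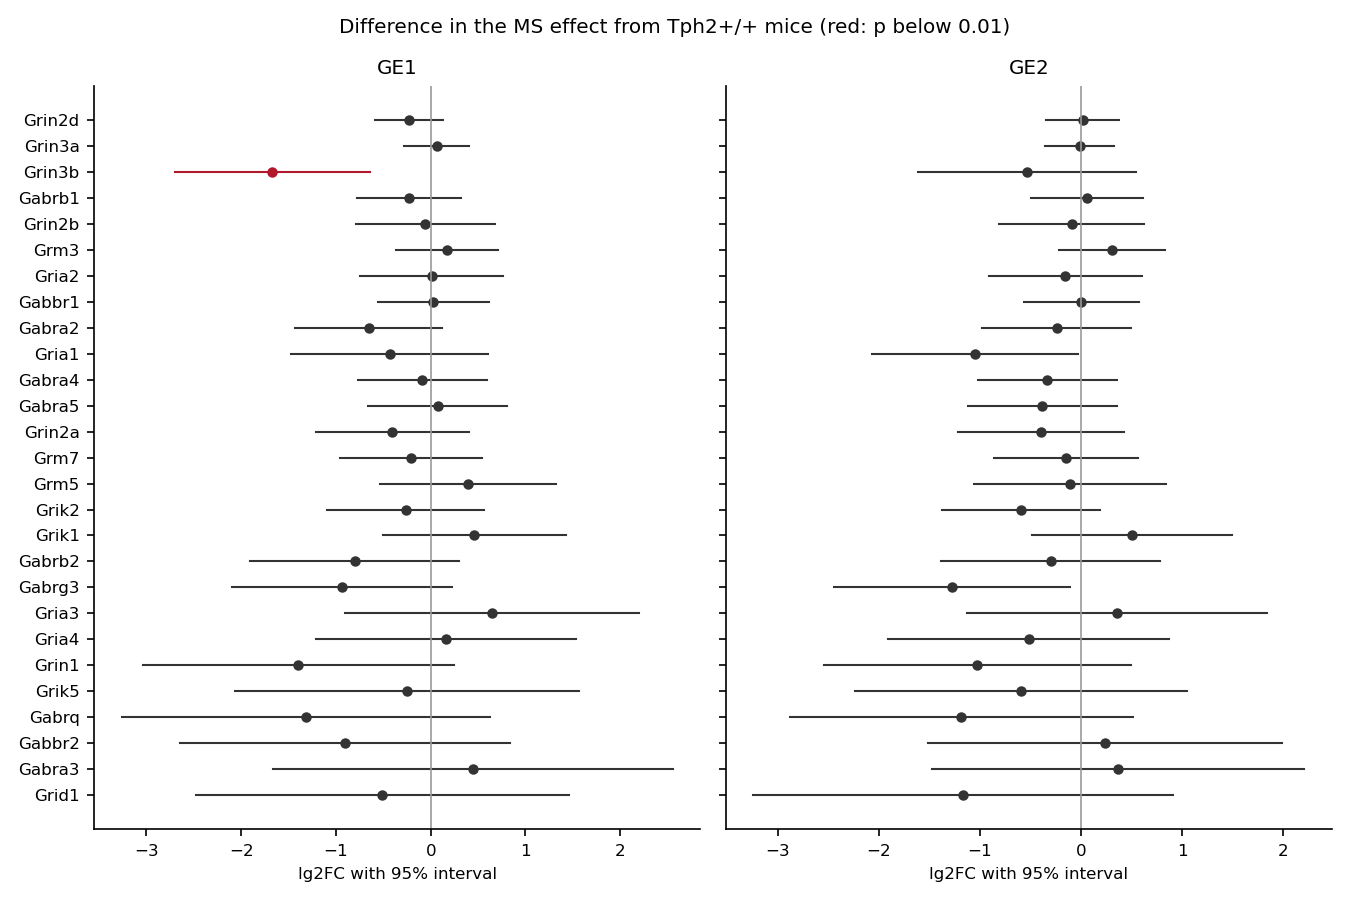
The lg2FC of the interactions GE1 and GE2 for the 27 members tested, with 95% intervals from edgeR. Red marks a call, which only Grin3b received, in GE1 at -1.67 with an interval from -2.70 to -0.64. The intervals of the other members include 0 except those of Gria1 and Gabrg3 in GE2.

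Among the NMDA receptor genes, Grin3b encodes GluN3B, a subunit that binds glycine rather than glutamate and lowers the calcium permeability of the channel. It lies on chromosome 10 from 79970715 to 79977190 on the plus strand of GRCm38. Its counts in Tph2+/+ mice ran from 9 to 28 (median 15.5) under C and from 9 to 77 (median 26.5) after MS. Tph2+/- mice had 8 to 79 counts (median 33.5) under C and 7 to 56 (median 24) after MS. Tph2-/- mice had 10 to 31 (median 18.5) and 9 to 52 (median 24). All 6 groups overlapped, and the highest counts came from Tph2+/- controls and from Tph2+/+ mice with MS. The mean level in Tph2+/+ mice was 24.3 ± 10.1 CPM (SD, n = 8) under C and 44.9 ± 24.9 after MS. In Tph2+/- mice it was 49.3 ± 28.6 CPM under C and 29.5 ± 15.2 after MS. The interaction GE1 of Grin3b was -1.67 (SE 0.51, edgeR adjusted p = 0.310). Neither effect within a genotype was called, with an lg2FC of MS of 0.94 in Tph2+/+ mice (SE 0.37) and of -0.73 in Tph2+/- mice (SE 0.35). GE2 of Grin3b was -0.53 (SE 0.53). The call in GE1 held without each of the 48 libraries in turn, and was lost without the 7 controls of the highest animal numbers (Tph2+/+ C replicates 7 and 8, Tph2+/- C replicates 7 and 8, and Tph2-/- C replicates 6, 7 and 8), where the lg2FC was -1.29.

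Grin3b and Grin2d are rich in G and C, with 63.4% and 65.0% GC in their exons, and their level followed a GC index of the libraries, which that of the other tested members of high GC content, Grik5 and Grin1, did not. This index was computed for each library as the mean log2 level of 561 genes with more than 57.4% GC minus that of 2805 genes with less than 48.8%. Over the 48 libraries, the log2 CPM of Grin3b correlated with the index at r = 0.65 and rho = 0.61. The r was 0.64 without the 2 libraries farthest from the median and 0.60 within the groups. For Grin2d the r was 0.70 (rho = 0.67), and for Grin3a it was -0.12. For Grik5 (61.7% GC) the r was -0.0071 and for Grin1 (59.4% GC) 0.070, both at a few counts per library. Over the other tested members the r ran from -0.47 for Gabra2 (38.4% GC, -0.53 within the groups) to 0.30 for Gabbr2 (56.0% GC). These are descriptions of points that share library, depth and base composition. In Tph2+/+ mice the index averaged -0.222 ± 0.160 (SD, n = 8) under C and -0.0518 ± 0.232 after MS, and in Tph2+/- mice -0.0474 ± 0.148 and -0.129 ± 0.265. In Tph2-/- mice it was -0.239 ± 0.176 and -0.103 ± 0.274, with a mean Grin3b level of 24.7 ± 9.28 and 32.1 ± 14.7 CPM. The 4 groups of GE1 had the same order in the index as in the mean CPM of Grin3b, and over all 6 groups Tph2+/+ C and Tph2-/- C changed places. With the index as a covariate, an alternative added after seeing the data, GE1 of Grin3b was -1.16 (SE 0.43). Its unadjusted edgeR p of 0.0103 lay just over the limit of 0.01, so it was no longer called. Gabra2 was called lower in that fit, beside 1.38% of all genes.

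**Figure D3:**
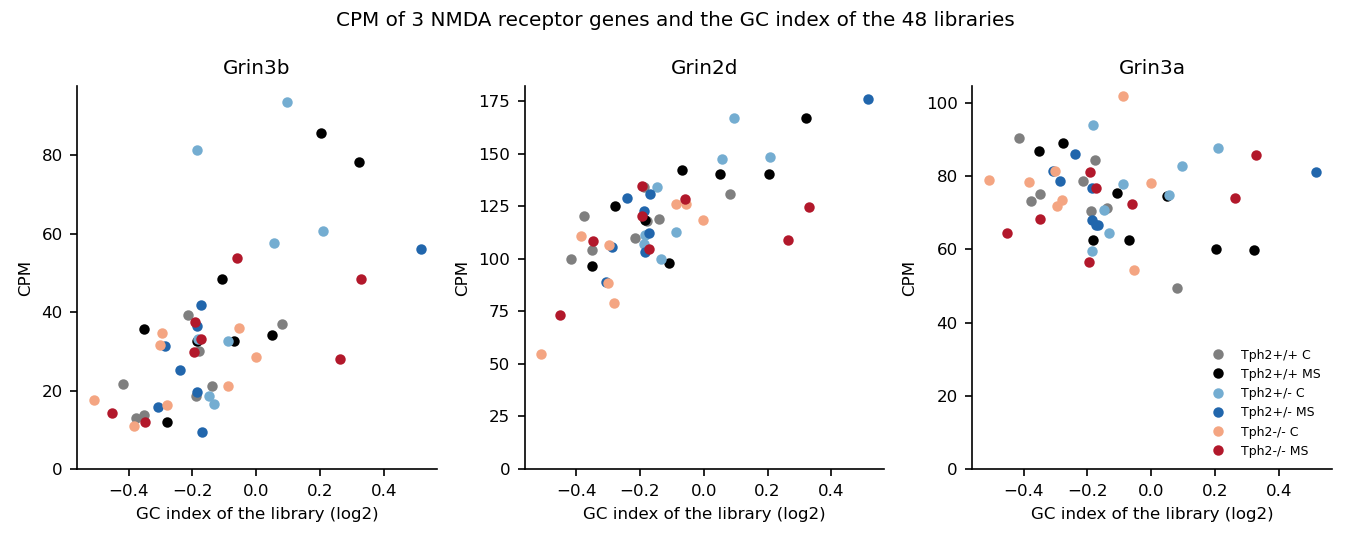
CPM of Grin3b, Grin2d and Grin3a in each of the 48 libraries against the GC index of that library, the difference in mean log2 level between GC-rich and other genes. Points rise with the index for Grin3b (r = 0.65) and Grin2d (r = 0.70) but not for Grin3a (r = -0.12).

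Grin2d, which encodes GluN2D, a subunit found early in development and in interneurons, had the highest counts of all members. Tph2+/+ mice had 53 to 102 counts (median 87) under C and 70 to 145 (median 101) after MS. Tph2+/- mice had 48 to 141 (median 96.5) and 73 to 176 (median 94). Tph2-/- mice had 40 to 109 (median 84.5) and 51 to 124 (median 94). The groups overlapped throughout, and the lg2FC of GE1 was -0.23 (SE 0.18). Grin3a encodes GluN3A, the other glycine-binding subunit. Its group medians lay between 55 and 68.5 counts, with single libraries from 20 to 81. GE1 of Grin3a was 0.06, with a 95% interval from -0.28 to 0.40, which is the most precise estimate among the members.

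Grin1 had 0 to 6 counts per library and 0 in 8 of the 48 libraries. In Tph2+/+ C it had 0 to 2 counts (median 1, 7 in all) and in Tph2-/- C 2 to 5 (median 3, 26 in all), so that both groups met at 2 counts. The other groups had 0 to 6 counts, and Tph2+/+ MS and Tph2-/- MS both had a median of 3. The level was 1.16 ± 1.07 CPM (SD, n = 8) in Tph2+/+ C and 3.99 ± 1.17 in Tph2-/- C. Grin1 was called higher in Tph2-/- C than in Tph2+/+ C, with an lg2FC of 1.59 (SE 0.59, edgeR adjusted p = 0.9996). A two-sided exact permutation test of the difference in log2(CPM + 1) between the same 16 mice gave an unadjusted p = 0.000466. This test was run on the 27 members in 7 comparisons. With edgeR the call was lost without any 1 of 9 libraries, namely Tph2+/+ C replicates 1 to 6 and Tph2-/- C replicates 1, 2 and 7, where the lg2FC was 1.38 to 1.62. It was also lost without the 4 libraries rich in Gm42418, at an lg2FC of 1.44. In the same comparison Grin1os, which lies opposite to Grin1, had an lg2FC of -0.07 (SE 0.079). Grin2b and Grin2a encode the GluN2 subunits of the adult forebrain. Grin2b had 3 to 37 counts per library, with group medians from 17.5 to 23, and Grin2a had 1 to 25. The lg2FC of Grin2a in Tph2+/- against Tph2+/+ C was 0.66 (SE 0.29), which was not called.

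Among the AMPA receptor genes, Gria1 encodes GluA1, a subunit whose insertion at synapses accompanies learning. It lies on chromosome 11 from 57011387 to 57330244 on the plus strand and shares no exon with an opposite gene. Tph2+/+ mice had 1 to 13 counts (median 8.5) under C and 4 to 25 (median 9.5) after MS. Tph2+/- mice had 2 to 26 (median 12) and 4 to 24 (median 12.5). Tph2-/- mice had 9 to 30 (median 17) and 6 to 18 (median 12). Tph2-/- C had the highest median, yet overlapped with Tph2+/+ C from 9 to 13 counts. Gria1 was called higher in Tph2-/- C, at 21.98 ± 8.27 CPM (SD, n = 8), than in Tph2+/+ C, at 10.1 ± 4.75. The lg2FC was 1.05 (SE 0.36, edgeR adjusted p = 0.9996), and an exact permutation test gave p = 0.00482. The edgeR call was lost without any 1 of 7 libraries, namely Tph2+/+ C replicates 1, 4 and 8 and Tph2-/- C replicates 1, 2, 3 and 7, where the lg2FC was 0.93 to 1.01. It was also lost without the 4 libraries rich in Gm42418 (lg2FC 0.93) and without the 7 controls of the highest animal numbers (lg2FC 1.05). GE2 of Gria1 was -1.05 (SE 0.51) and was not called. Gria2 encodes GluA2, which makes AMPA receptors impermeable to calcium. It had 1 to 34 counts, with group medians from 14 in Tph2+/+ MS to 26 in Tph2-/- C. Gria3 and Gria4 had 0 to 16 and 0 to 12 counts.

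**Figure D4:**
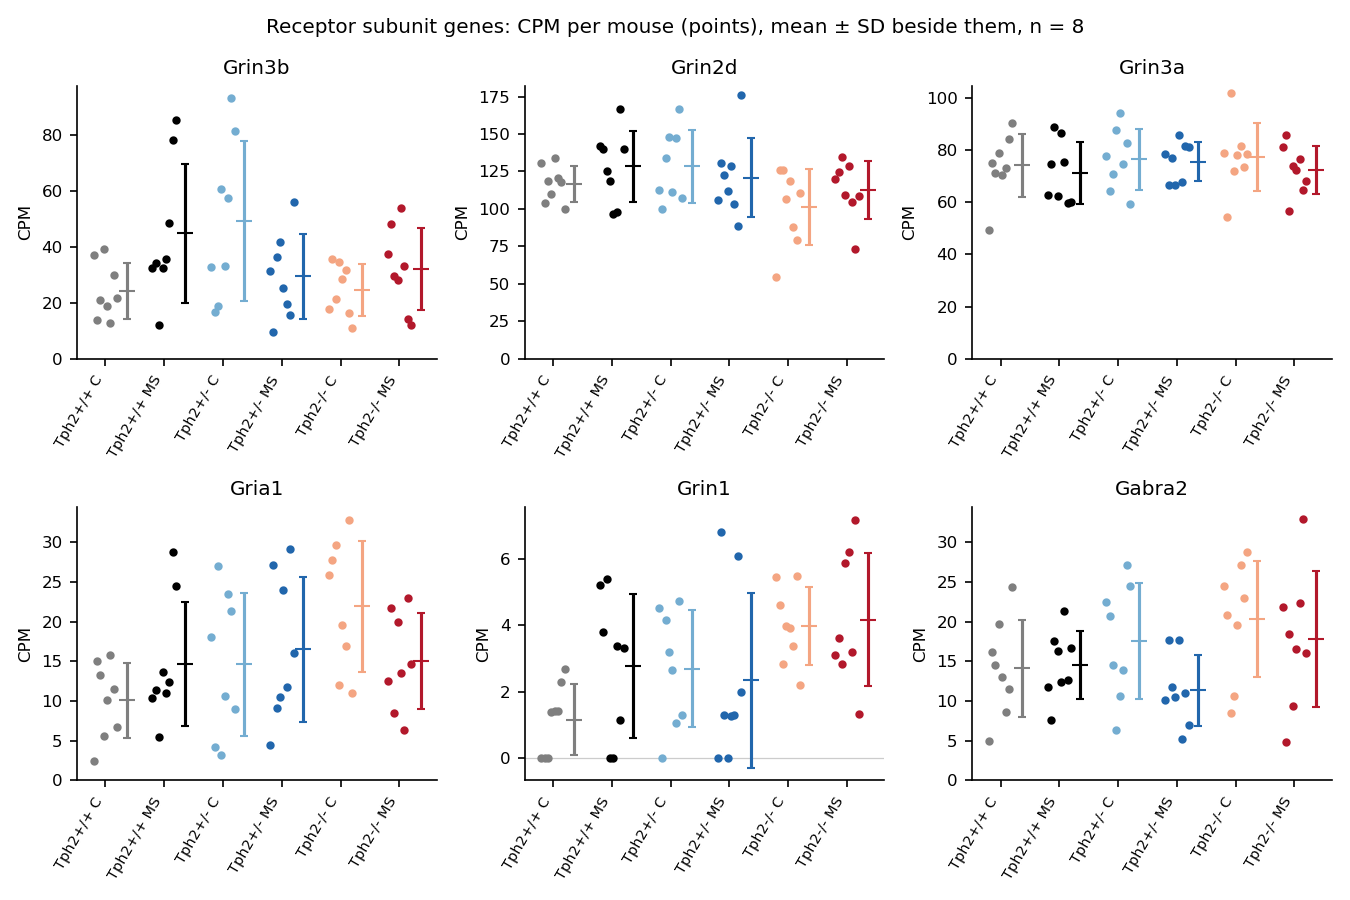
CPM per mouse of Grin3b, Grin2d, Grin3a, Gria1, Grin1 and Gabra2 in the 6 groups, each point being a mouse and the bars the mean ± SD (n = 8). Gria1 is highest in Tph2-/- C at 21.98 ± 8.27 CPM against 10.1 ± 4.75 in Tph2+/+ C, and the points of both groups overlap. Grin3b is highest in Tph2+/- C and Tph2+/+ MS.

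In the comparison of Tph2-/- with Tph2+/+ mice under C, Grin1 and Gria1 were the 2 members called, both higher, beside 0.695% of all genes (105 of 15104). Of all genes, 0.497% were called higher there and 0.199% lower. The lg2FC was positive for 20 of 27 members, and their median was 0.35 against 0.01 over all genes. In the comparison of Tph2+/- with Tph2+/+ mice under C, Grin3b was called, which makes 1 of 27 members beside 1.35% of all genes (204 of 15104, with 1.13% higher and 0.225% lower). It was higher in Tph2+/- mice, with an lg2FC of 1.07 (SE 0.37, edgeR adjusted p = 0.637) and an exact permutation p of 0.0423. This call was lost without any 1 of 9 libraries, namely Tph2+/+ C replicates 2, 3, 5, 6 and 8 and Tph2+/- C replicates 4, 6, 7 and 8, where the lg2FC was 0.86 to 1.04. It was also lost without the 7 controls of the highest animal numbers (lg2FC 0.69) and with the GC index as a covariate (lg2FC 0.70).

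In the 5 remaining comparisons no member was called by edgeR. For the effect of MS in Tph2+/+ mice, 1.66% of all genes were called. An unadjusted p under 0.05 was reached there by 1 member, Grin3b, and by 5.87% of all genes. For MS in Tph2+/- mice 0.556% of all genes were called, and 2 members and 3.58% of all genes had an unadjusted p under 0.05. For MS in Tph2-/- mice 0.801% were called, and 0 members and 4.59% of all genes reached that p. Between mice with MS, 0.874% of all genes were called for Tph2+/- and 1.25% for Tph2-/- against Tph2+/+. An unadjusted p under 0.05 was reached by 1 member and 4.38% of all genes in the former, and by 2 members and 5.59% in the latter. The median lg2FC of MS over the members was 0.02 in Tph2+/+, -0.13 in Tph2+/- and -0.17 in Tph2-/- mice, against 0.01, -0.03 and 0.00 over all genes.

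Kainate receptors modulate release at both kinds of synapse. Grik2, for GluK2, had 1 to 15 counts, with group medians from 6 to 9.5. Its lg2FC in Tph2-/- against Tph2+/+ C was 0.50, not called, while the exact permutation test of the same mice gave p = 0.00513. Grik1 had 1 to 10 counts and Grik5, for a subunit that needs a GluK1 to GluK3 partner, 0 to 7. Grid1, for the delta receptor GluD1, which binds cerebellins and organises synapses, had 0 to 7 counts.

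The metabotropic receptor gene with the highest counts was Grm3, for mGlu3, a receptor of astrocytes and presynaptic terminals that lowers cAMP. It had 7 to 32 counts, with group medians from 15.5 in Tph2+/- MS to 23 in Tph2+/+ C. The lg2FC in Tph2+/- against Tph2+/+ C was -0.42 (SE 0.19), which was not called. Grm7, for a presynaptic receptor of low affinity, had 2 to 18 counts. Grm5, for mGlu5, which raises calcium in the postsynaptic cell, had 0 to 17.

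Among the GABA-A receptor genes, Gabrb1 had the highest counts, 8 to 39 per library with group medians from 16.5 to 24. Gabra2, for the alpha2 subunit, which is linked to the calming effect of benzodiazepines, had 2 to 26 counts. Its median in Tph2+/- mice was 13.5 under C and 9 after MS, and the lg2FC of MS there was -0.65 (SE 0.28), which was not called. Gabra5, for the alpha5 subunit of receptors outside synapses, had 3 to 27 counts and group medians from 8.5 to 12.5. Its lg2FC in Tph2-/- against Tph2+/+ MS was -0.60 (SE 0.27), not called, whereas Gm9962, opposite to it, was called higher there at 0.41 (SE 0.12, edgeR adjusted p = 0.557). Gabra4, also a subunit of receptors outside synapses, had 3 to 19 counts. Gabrb2 and Gabrg3 had 0 to 10 and 0 to 13 counts, and the lg2FC of Gabrg3 in GE2 was -1.28 (SE 0.59), not called. Gabrq had 0 to 7 and Gabra3 0 to 4 counts. Gabbr1, which encodes the ligand-binding subunit of the GABA-B receptor, had 5 to 29 counts with group medians from 14.5 to 22. Gabbr2, whose product carries the receptor to the cell surface and couples it to G proteins, had 0 to 5.

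Summed over the subunits of a class, the AMPA receptor genes averaged 40.2 ± 13.3 CPM (SD, n = 8) in Tph2+/+ C and 64.6 ± 19.3 in Tph2-/- C, the highest of the 6 groups. In the other 4 groups the mean of this sum was 40.2 to 47.95 CPM. The NMDA receptor genes averaged from 249 ± 15.1 CPM in Tph2+/+ C to 295.5 ± 61.7 in Tph2+/- C. The metabotropic genes ranged from 44.5 ± 7.59 in Tph2+/- MS to 54.1 ± 7.53 in Tph2-/- C. The GABA-A receptor genes ranged from 74.8 ± 15.1 in Tph2+/- MS to 94.0 ± 17.1 in Tph2+/+ MS. The group means of the GABA-B receptor genes ran from 21.7 to 26.0 CPM and those of the kainate receptor genes from 17.4 to 21.7 CPM. Over all 38 members the sum was 472 ± 51.9 CPM in Tph2+/+ C and 521 ± 95.9 in Tph2+/- C, with the other groups in between. Single mice of the lowest and the highest group overlapped in every class named here. Because the class sums were made over chosen genes, they are given without a test.

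**Figure D5:**
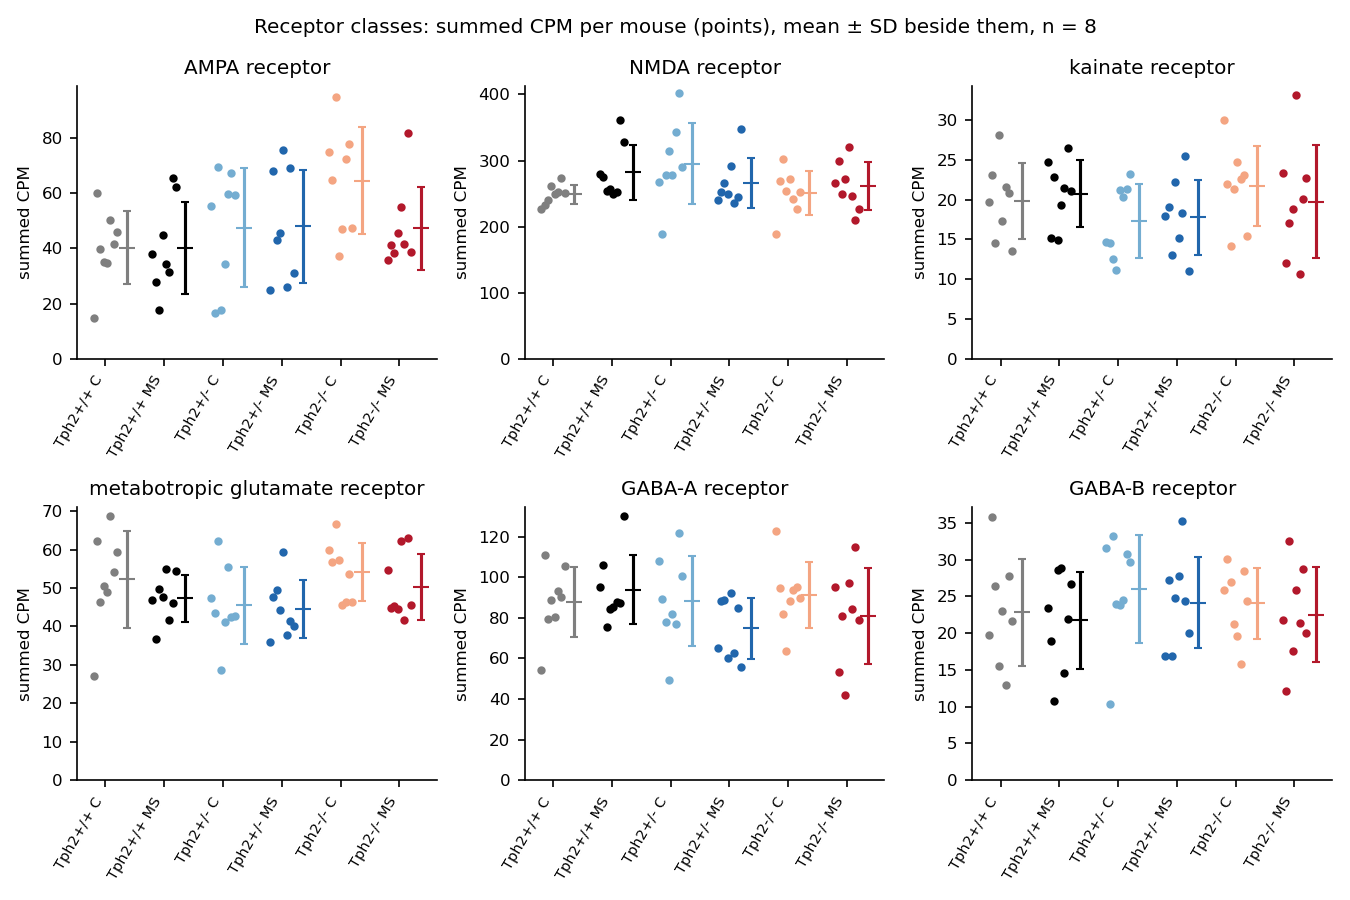
Summed CPM of the members of 6 receptor classes in each mouse, by group, with the mean ± SD (n = 8). The AMPA receptor sum is highest in Tph2-/- C at 64.6 ± 19.3 CPM, and the groups overlap in every class. The delta receptor class, with Grid1 alone, is not drawn.

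The members did not vary as 1 block over the 48 libraries. Among the 66 pairs of the 12 members with the highest counts, the median r of log2 CPM was 0.122, and 18 pairs were negative. In 4 pairs r exceeded 0.5. The highest was that of Grin2b and Gria1 with r = 0.754 (rho = 0.730), which was 0.688 without the 2 farthest libraries and 0.745 within the groups. Gria2 followed Grin2b with r = 0.648 and Gria1 with r = 0.641. Grin2d and Gabra2 had the lowest r, -0.378. These values describe points that share library, depth and base composition.

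Other genes of the same synapses were taken from lists of transporters, transmitter enzymes, auxiliary subunits and scaffold proteins, chosen with earlier results of these data known. Of 57 such genes in the table, 47 were tested. In GE1, 2 were called, both lower, beside 1.92% of all genes (1.61% lower and 0.311% higher). One was Slc17a7, for the transporter that loads glutamate into vesicles, with 0 to 2 counts (median 0.5) under C and 0 to 5 (median 2.5) after MS in Tph2+/+ mice. Tph2+/- mice had 0 to 8 (median 3) and 0 to 3 (median 1). Its GE1 was -2.88 (SE 0.87, edgeR adjusted p = 0.271), and all 4 groups overlapped. The other was Aldh5a1, for an enzyme that breaks down GABA, with 4 to 16 counts (median 10) under C and 4 to 40 (median 12) after MS in Tph2+/+ mice. Tph2+/- mice had 7 to 45 (median 15.5) and 3 to 22 (median 11.5). Its GE1 was -1.46 (SE 0.50, edgeR adjusted p = 0.405). Without the 7 controls of the highest animal numbers, neither was called, at -2.46 for Slc17a7 and -1.14 for Aldh5a1. The call of Aldh5a1 was also lost with the GC index as a covariate (-0.99). The same held without any 1 of Tph2+/+ C replicate 8, Tph2+/+ MS replicates 7 and 8 and Tph2+/- C replicate 7. Its GE1 was then -1.31 to -1.16, with an unadjusted edgeR p of 0.0105 to 0.0161. In GE2 Gad1, for an enzyme that makes GABA, was called lower, beside 0.629% of all genes (0.404% lower and 0.225% higher). It had 1 to 6 counts (median 3.5) under C and 2 to 8 (median 7) after MS in Tph2+/+ mice. Tph2-/- mice had 2 to 12 (median 6) and 1 to 8 (median 4.5). Its GE2 was -1.38 (SE 0.50, edgeR adjusted p = 0.998). Gad1 lost the call without the 4 libraries rich in Gm42418 (-1.23). It also lost it without any 1 of 9 libraries (GE2 from -1.33 to -1.24, unadjusted edgeR p 0.0104 to 0.0160). These were Tph2+/+ C replicates 2 and 3, Tph2+/+ MS replicates 1 and 3, Tph2-/- C replicates 1, 2 and 5, and Tph2-/- MS replicates 1 and 2. The median lg2FC over the tested genes of these lists was -0.28 in GE1 and -0.13 in GE2.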

How the data were processed

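Total RNA of 48 amygdala samples was made into TruSeq Stranded Total RNA libraries and sequenced as 125-base read pairs. The deposited values are raw counts of read pairs per Ensembl gene, to which the authors applied no normalization. The submitters' processing notes name STAR, HTSeq, DESeq2 and GRCm38.p5, with no versions. The setting for strand is not given in the sources used here. Pairs on no gene made up 75.8% to 97.6% of the pairs on a gene, on no gene or ambiguous in a library. They and the other special entries were left out. All columns were matched to a mouse by their labels, and no 2 columns were identical.

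Genes averaging 1 count or more per library were tested, Lars2 excepted because the study excluded it. Counts were scaled with TMM and fitted with edgeR 4.0.16 (R 4.3.3), robust quasi-likelihood, with 1 coefficient per group over all 48 samples. The filter and the robust fit were chosen because standard errors were too small in an earlier fit without them. Adjusted p-values follow Benjamini and Hochberg over all 15104 genes. Exact permutation tests were two-sided and used log2(CPM + 1). Exons, GC content and opposite genes were taken from GENCODE M21 on GRCm38.

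The members and lists were chosen with earlier results of these data known. Members were named with full values if they had a mean of at least 10 counts or were called. Alternatives were DESeq2 1.42.0 with and without a prior, its size factors, filterByExpr, every gene with a count, no robust fit, Gm42418 left out, other scalings of the class sums, a block for the replicate number, exact permutation, and leaving out single libraries, the 4 libraries rich in Gm42418 or the 7 controls of the highest animal numbers. The GC index as a covariate was added after seeing the data. The fit was tested on simulated data. Python 3.11.15, NumPy 2.4.6, SciPy 1.17.1, pandas 2.3.3 and matplotlib 3.10.9 were used. Sequences of some other genes are not reported here.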

Additional observations from a re-analysis of the deposited data

Results flagged for a closer look

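In 6 of 126 groups of 8 libraries checked, a single library lay farther from the others than Dixon's limit allows, and chance flags about 1 in 20 such groups. Gria2 had 2.47 CPM in Tph2+/+ C replicate 1, where the group median was 21.3, and Gabbr1 had 10.4 CPM in Tph2+/- C replicate 2 (median 25.8). Both libraries are among the 4 rich in Gm42418. The summed CPM of the GABA-B receptor genes was likewise 10.4 in Tph2+/- C replicate 2 (median 27.1). Gabra4 had 23.5 CPM in Tph2+/+ MS replicate 1 (median 12.9), and the AMPA receptor genes summed to 81.7 CPM in Tph2-/- MS replicate 7 (median 41.3). The delta receptor gene had 7.28 CPM in Tph2+/- C replicate 3 (median 0.591).

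The effect of MS on Grin3b differed between Tph2+/- and Tph2+/+ mice by an lg2FC of -1.67 in the interaction test (SE 0.51, edgeR adjusted p = 0.310). The GC index of the libraries moved with the level of Grin3b, and with the index as a covariate the lg2FC was -1.16.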

How the results depend on the processing

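Apart from the omission of single libraries, 25 counts of members called and class sums moved under an alternative, and no value changed sign. With every gene that had a count tested, 2 of 37 members were called in GE1 (Grin3b and Grik4), beside 1.63% of all genes. In GE2 1 was called (Gria1), beside 0.825%, and in Tph2+/- against Tph2+/+ C 2 (Grin3b and Grik4), beside 1.28%. This fit lacks the filter on low counts, which was added because standard errors were too small in an earlier fit without it and without robust fitting. Without the 7 controls of the highest animal numbers, 0 of 27 members were called in GE1 and in Tph2+/- against Tph2+/+ C, beside 0.961% and 0.681% of all genes. There was 1 call each in MS of Tph2-/- and in Tph2-/- against Tph2+/+ C, beside 0.781% and 0.734%. Without the 4 libraries rich in Gm42418, 1 of 27 members was called in MS of Tph2+/+ mice, beside 1.47% of all genes. In Tph2+/- against Tph2+/+ C 2 were called, beside 1.9%, and in Tph2-/- against Tph2+/+ C 0, beside 0.599%. With the GC index as a covariate, 1 of 27 members (Gabra2) was called in MS of Tph2+/- mice, beside 0.927% of all genes. In Tph2+/- against Tph2+/+ C 0 were called, beside 0.768%. The 1 call in GE1 was Gabra2 in place of Grin3b, beside 1.38%. Without robust fitting 1 was called in MS of Tph2+/+ mice, with filterByExpr 1 in Tph2-/- against Tph2+/+ C, and by exact permutation 0 in Tph2+/- against Tph2+/+ C. The cause was not tested.

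Scaled to all genes but Lars2 and Gm42418, class sums were 277, 308 and 292 CPM for NMDA receptor genes in Tph2+/+ C, Tph2+/- MS and Tph2-/- C. They were 54.2 and 63.0 CPM for metabotropic genes in Tph2+/+ MS and Tph2-/- C. Over all 38 members they were 528 CPM under C and 581 after MS in Tph2+/+ mice, 552 after MS in Tph2+/- mice, and 592 and 549 in Tph2-/- mice.

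Leaving out each library in turn, members called ranged from 0 to 1 for MS in Tph2+/+ (1 without Tph2+/+ C replicate 4 or MS replicate 3), from 0 to 1 for MS in Tph2+/- (1 without Tph2+/- C replicate 4, MS replicate 2 or MS replicate 5) and from 0 to 1 for Tph2+/- against Tph2+/+ MS (1 without Tph2+/+ MS replicate 3). They ranged from 0 to 2 for Tph2+/- against Tph2+/+ C and for Tph2-/- against Tph2+/+ C, through the libraries named beside Grin3b, Gria1 and Grin1 and others. In GE1 the count was 1 throughout, and in GE2, MS in Tph2-/- and Tph2-/- against Tph2+/+ MS it was 0. Grin3b in GE1 ranged from -1.89 to -1.47.

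Replicate numbers did not pair the mice: 24 of 120 same-numbered pairs correlated over 0.1, with a median r of -0.000483. With the replicate block, 1 member was called in GE1 and 0 in GE2, beside 1.85% and 0.583% of all genes, and no call of a member changed. Counts of calls over all genes moved by over 1.5 times in some fits, given in the order GE1, GE2, MS in Tph2+/+, Tph2+/- and Tph2-/-, Tph2+/- and Tph2-/- against Tph2+/+ under C, and the same after MS. From 290, 95, 250, 84, 121, 204, 105, 132 and 189 they moved with filterByExpr to 191, 32, 165, 39 and 52 in the first 5, to 1.96% of the genes it keeps in the sixth, and to 38 and 76 in the next pair. With every gene that had a count they were 526, 266, 454, 277, 268, 411, 265, 326 and 435 of 32234 genes tested. As shares, these were 1.63% in GE1 and 0.825% in GE2. Without the 7 controls they were 144 in GE1 and 102 in Tph2+/- against Tph2+/+ C, and without the 4 libraries rich in Gm42418 80 for MS in Tph2-/- mice. With the GC index they were 136 for MS in Tph2+/+ mice, 140 for MS in Tph2+/- mice and 116 in Tph2+/- against Tph2+/+ C.

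Most members had fewer than 10 counts per library, and 11 members entered no comparison but the fit of every gene with a count. At 0 counts, levels up to 3 counts per library were not detectable.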

Other observations

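A further 12 genes lie on the other strand within the span of a member but share no exon with it. Gm15617, a processed pseudogene within the span of Gabrb1, had 2487 counts against 1007. Gm14330, an antisense RNA within that of Grin2b, had 3456 against 975, and Gm24249, a snRNA gene within that of Grm5, had 2076 against 392. Of these and the 11 genes with shared exons, Kdelr1, Tmem259 and Gm12660 averaged under 1 count and were not tested. Among the rest, 4 were called in any of the 9 comparisons, and are named after their values were seen. Over all genes tested, 0.629% were called in GE2, 0.801% for MS in Tph2-/- mice and 1.25% in Tph2-/- against Tph2+/+ mice with MS. The share in a single comparison ran from 0.556% (MS in Tph2+/- mice) to 1.92% (GE1). The share of genes called in any of the 9 was not computed, so the 4 calls cannot be set against it. Gm26310, a snoRNA gene within the span of Grm8 with 0 to 7 counts per library, was lower in GE2 (lg2FC -2.34, SE 0.75) and for MS in Tph2-/- mice (-1.59, SE 0.53). Gm25837, opposite to Grin2c, was higher for MS in Tph2-/- mice (0.45, SE 0.17). Gm17987, a processed pseudogene within the span of Gabrg3, was lower in Tph2-/- against Tph2+/+ mice with MS (-0.61, SE 0.21), where Gm9962, opposite to Gabra5, was higher (0.41, SE 0.12). The edgeR adjusted p of these calls ran from 0.557 to 0.998.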
